A study of Mus musculus with 9 samples.

Results

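The LIF-STAT3 and BMP-Id genes described here are 10 genes of a pair of signalling pathways in the mouse: Lifr, Il6st, Stat3 and Socs3 on the LIF side, and Bmp4, Bmpr1a, Smad1, Id1, Id2 and Id3 on the BMP side. They were chosen by name and found by the coordinates of their loci in GRCm38. All 10 had a locus of their own, among 11328 genes that could be told apart in a table of 54913 loci. RNA-seq was performed on 9 libraries, 3 of each of 3 groups. SSC were primary spermatogonial stem cells from pup testes, enriched by magnetic sorting for the surface receptor Gfra1 and labelled passage 0. SSCiPSC were induced pluripotent stem cells made from SSC, and fiPSC were the same kind of cell made from fetal fibroblasts, both labelled passages 10 to 11, although the study's methods give later passages for the cells purified for RNA. All 3 groups carried the same pair of alleles. Gt(ROSA)26Sortm1(rtTA*M2)Jae encodes the doxycycline-dependent activator, and Col1a1tm3(tetO-Pou5f1,-Sox2,-Klf4,-Myc)Jae/J holds the reprogramming factors under its control. The iPSC lines were grown from single picked colonies and were purified for SSEA1, a surface sugar of mouse pluripotent cells, before RNA extraction. The sample labels name a stem cell medium with LIF and doxycycline, whereas the study's methods describe withdrawal of doxycycline before the labelled passages. The study describes its RNA-seq samples as biological and its methylation assays as made on several iPSC lines of each origin, but the sources do not say which animal or line each RNA library came from, so the p-values measure only the spread between these libraries.

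LIF binds a receptor made of LIFR and gp130, the product of Il6st, and Janus kinases on that receptor then phosphorylate STAT3, which enters the nucleus and turns on its targets. Socs3 is both a target of STAT3 and an inhibitor of the receptor complex, and LIF with STAT3 is known for keeping mouse pluripotent cells undifferentiated in culture. BMP4 acts through type I receptors such as BMPR1A and through SMAD1, which induces the Id genes. Id proteins bind E proteins and keep them, and the differentiation factors that pair with them, off DNA.

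Of the 10 genes, Socs3 showed the largest rise in iPSC and Id2 the largest fall, so their promoters are shown. Each is the RefSeq sequence in GRCm38.p6 from 250 bases before to 50 bases after the start that RefSeq gives the gene, 5′ to 3′ on the strand of the gene. That start is at position 117969366 for Socs3 and 25096092 for Id2, which is 681 and 1048 bases inside the outermost start of the GENCODE gene models used for the positions below. Capitals mark TTCNNNGAA, the palindromic site that STAT factors bind, and GGCGCC, a GC-rich palindrome bound by SMAD factors of the BMP branch. Both motifs read the same on either strand and they do not overlap in these windows. The first sequence is chr11:117969317-117969616 on the minus strand and the second is chr12:25096043-25096342 on the minus strand.
Socs3: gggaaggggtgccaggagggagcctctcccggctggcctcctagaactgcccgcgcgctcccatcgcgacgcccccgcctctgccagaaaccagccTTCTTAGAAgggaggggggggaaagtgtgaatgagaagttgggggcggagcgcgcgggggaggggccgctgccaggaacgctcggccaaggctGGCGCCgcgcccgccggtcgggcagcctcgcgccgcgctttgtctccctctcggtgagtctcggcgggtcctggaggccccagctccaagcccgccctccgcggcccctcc
Id2: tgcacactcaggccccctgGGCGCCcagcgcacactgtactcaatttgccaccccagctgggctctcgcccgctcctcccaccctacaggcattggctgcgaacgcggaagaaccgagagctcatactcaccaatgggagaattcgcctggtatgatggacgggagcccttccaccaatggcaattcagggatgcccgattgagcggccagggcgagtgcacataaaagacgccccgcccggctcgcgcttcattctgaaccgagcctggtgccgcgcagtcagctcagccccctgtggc

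The Socs3 promoter held TTCTTAGAA 154 bases before the RefSeq start and GGCGCC 61 bases before it, and the Id2 promoter held GGCGCC 231 bases before its RefSeq start. Promoter entries were matched for 9 of the 10 genes, the exception being Id1. Among those 9, TTCNNNGAA was found in the window of 1 gene, Socs3, against 8.3% of 32851 promoters of this length, and GGCGCC in the windows of 4 genes (Socs3, Id2, Lifr and Bmpr1a), against 11.9%. These are matches of letters, not measured binding sites.

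The depth of the libraries differed between SSC and iPSC. Estimated totals, to 3 significant digits, were 1760000, 4610000 and 1370000 fragments in SSC replicates 1, 2 and 3, 15800000, 13700000 and 14900000 in SSCiPSC and 13300000, 17600000 and 15300000 in fiPSC. Values are FPKM, fragment numbers scaled for the length of the transcript and the depth of the library. The library labels were set against marker genes. Germ line genes were present in SSC, with Gfra1 at 37.7, 34.1 and 23.9 FPKM and Dazl, an RNA-binding protein of germ cells, at 194, 263 and 174 FPKM. Of the 14 germ line markers 10 fell in both iPSC groups and Etv5, Kit and Sall4 rose, and their sum was between 289 and 490 FPKM in iPSC. The 8 of 11 Sertoli cell markers with a locus of their own summed to 1395, 1429 and 1159 FPKM in SSC, above the 761, 924 and 633 FPKM of the 14 germ line markers, and to between 10.1 and 14.7 FPKM in iPSC. All 7 Sertoli markers that could be tested fell in both iPSC groups, the most abundant was Clu, and Cst12, Rhox8 and Defb19 were listed at 0 in all 6 iPSC libraries. Mast cell markers summed to 92.2, 335 and 970 FPKM and macrophage markers to 42.9, 17.7 and 140 FPKM in SSC replicates 1, 2 and 3, so both were highest in replicate 3, as were fibroblast markers, at 106, 98.0 and 298 FPKM. In iPSC, macrophage markers summed to between 8.74 and 14.4 FPKM and fibroblast markers to between 11.9 and 45.3 FPKM. Of 6 macrophage markers tested 4 fell in SSCiPSC and 3 in fiPSC, and 6 of 9 fibroblast markers fell in each. Of the mast cell markers 4 of 5 tested fell and Kit, which is also a germ line gene, rose from a mean of 9.71 FPKM to 46.1 in SSCiPSC and 25.9 in fiPSC. Tpsab1 was the most abundant, and Tpsab1 and Tpsb2 were listed at 0 in iPSC. Leydig cell markers (3 of 7 with a locus) summed to 160, 124 and 236 FPKM in SSC and to 0.358 or less in iPSC, and all 3 fell. Peritubular myoid markers summed to 85.8, 76.9 and 70.2 FPKM, and endothelial markers to 127, 62.8 and 105 FPKM in SSC, with 2 of 4 and 4 of 7 lower in each iPSC group. The endothelial marker Pecam1 rose, from a mean of 41.8 FPKM to 101 and 92.9, and the endothelial sum was between 85.5 and 130 FPKM in iPSC. All 9 pluripotency markers with a locus rose in both iPSC groups, and Nanog was listed at 0 in the 3 SSC libraries. Pou5f1 and Sox2 among them are also encoded by the transgene, which these values cannot tell from the endogenous genes. In bulk RNA of this kind, fewer cells of a type and less RNA per cell cannot be told apart, and the part of Sertoli, mast and other somatic cells in the SSC values of the 10 genes was not tested. Without SSC replicate 3, Id2 was -2.58 and Il6st -0.65 on the log2 scale in SSCiPSC against SSC, and -2.94 and -0.78 in fiPSC, and all 4 values passed the threshold described next.

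The first question was which of the 10 genes differed between iPSC and the SSC from which SSCiPSC were made. Against SSC, 1 of the 10 genes rose and 3 fell in SSCiPSC, where 50.3% of all loci tested passed the same threshold, a limma p-value adjusted over all loci below 0.05. In fiPSC 2 genes rose and 5 fell, where 51.8% of loci passed. Among loci of named genes the shares were 62.3% and 64.8%, so 4 of 10 and 7 of 10 are near the background. In SSCiPSC, 2 genes rose and 5 fell with all 9 libraries in the fit, and 1 rose and 5 fell with 1 locus per named gene. By direction, 26.2% of loci were higher and 24.1% lower in SSCiPSC, and 28.0% higher and 23.7% lower in fiPSC. Among named genes with 1 locus each, 3900 of 10069 were higher and 3035 lower in SSCiPSC. In fiPSC, 4001 of 10173 were higher and 3202 lower. The libraries of SSCiPSC and SSC were fully separated for 7 of the 10 genes and those of fiPSC and SSC for 8, against 59.8% and 61.6% of loci. The median log2 fold change of the 10 genes was -0.60 in SSCiPSC and -0.57 in fiPSC, and that of all loci tested was 0.11 and 0.17. Both comparisons use the same 3 SSC libraries and are not independent of each other. Fold changes below are on the scale of log2(FPKM + 1), which understates the change of low genes.

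On the LIF side, the transcripts of the signal transducer and of the shared receptor were lower in iPSC while that of the feedback inhibitor was higher. Lifr, the receptor chain specific to LIF and related cytokines, lies at chr15:7090614-7197489 on the plus strand. Its FPKM was 26.0, 22.9 and 24.8 in SSC, 29.0, 29.7 and 34.9 in SSCiPSC and 22.0, 23.3 and 24.4 in fiPSC. All 3 SSCiPSC libraries lay above the other 6, and SSC and fiPSC overlapped. The log2 fold change was 0.33 (SE 0.14, limma adjusted p = 0.0943) in SSCiPSC and -0.08 (SE 0.11, limma adjusted p = 0.586) in fiPSC against SSC, so neither passed. Median-ratio scaling raised the median of all loci by 0.17 in SSCiPSC and 0.13 in fiPSC, and under it Lifr reached 0.53 in SSCiPSC with a limma adjusted p of 0.0202. With all 9 libraries in the fit it also passed in SSCiPSC, at 0.33 (limma adjusted p = 0.0412). Under quantile normalization the value in SSCiPSC was -0.00264 with a limma adjusted p of 0.991. In fiPSC the value lay between -0.31 and 0.088 over the 15 alternatives and passed under none of them.

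Il6st encodes gp130, the receptor chain that LIF shares with IL-6 and its relatives, and lies at chr13:112464070-112510086 on the plus strand. Its FPKM was 61.1, 52.7 and 74.5 in SSC, 37.5, 35.3 and 34.3 in SSCiPSC and 29.8, 33.7 and 34.2 in fiPSC. Every iPSC library was below every SSC library. Il6st fell by 0.78 on the log2 scale in SSCiPSC (SE 0.16, limma adjusted p = 0.0067) and by 0.91 in fiPSC (SE 0.15, limma adjusted p = 0.00308). Of 10 further loci with no strand in the span of Il6st, 2 fell in both comparisons, 1 rose in both and 7 passed in neither. The most abundant of them, over the last exon at chr13:112505190-112505499, fell from a mean of 111.9 FPKM in SSC to 55.3 in SSCiPSC (limma adjusted p = 0.0116) and 48.3 in fiPSC (limma adjusted p = 0.00345). The one that rose was low, with means of 0.283 FPKM in SSC, 2.01 in SSCiPSC (limma adjusted p = 0.0229) and 1.38 in fiPSC (limma adjusted p = 0.0493). Within a library, the ratio of Il6st to Lifr was between 2.30 and 3.01 in SSC, between 0.983 and 1.30 in SSCiPSC and between 1.36 and 1.45 in fiPSC.

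Stat3, the transcription factor that carries the LIF signal, lies at chr11:100885098-100939540 on the minus strand. Its FPKM was 59.2, 60.5 and 61.9 in SSC, 24.8, 29.4 and 30.9 in SSCiPSC and 16.5, 19.2 and 22.8 in fiPSC. The 3 SSC libraries lay within 3 FPKM of each other and far above iPSC, and each fiPSC library lay below each SSCiPSC library. Stat3 fell by 1.07 on the log2 scale in SSCiPSC (SE 0.13, limma adjusted p = 0.000917) and by 1.60 in fiPSC (SE 0.14, limma adjusted p = 0.000261). These values are for RNA and say nothing of the phosphorylation of STAT3.

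Socs3, which binds the receptor complex and limits JAK activity, lies at chr11:117966079-117970047 on the minus strand. Its FPKM was 19.9, 17.0 and 22.8 in SSC, 84.7, 80.1 and 94.0 in SSCiPSC and 50.9, 44.0 and 72.2 in fiPSC. Both iPSC groups lay wholly above SSC, with SSCiPSC above fiPSC. The mean was 4.33 times that of SSC in SSCiPSC and 2.80 times in fiPSC. On the log2 scale Socs3 rose by 2.07 in SSCiPSC (SE 0.15, limma adjusted p = 0.00018) and by 1.42 in fiPSC (SE 0.21, limma adjusted p = 0.00205). The ratio of Socs3 to Stat3 within a library was between 0.282 and 0.368 in SSC, between 2.73 and 3.42 in SSCiPSC and between 2.30 and 3.16 in fiPSC. The calls for Il6st, Stat3 and Socs3 against SSC passed the threshold under all 15 alternatives in both comparisons, but their size depended on the scaling. Under quantile normalization Il6st was -1.42 in SSCiPSC and -1.46 in fiPSC, and Stat3 was -1.67 in SSCiPSC.

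**Figure D1:**
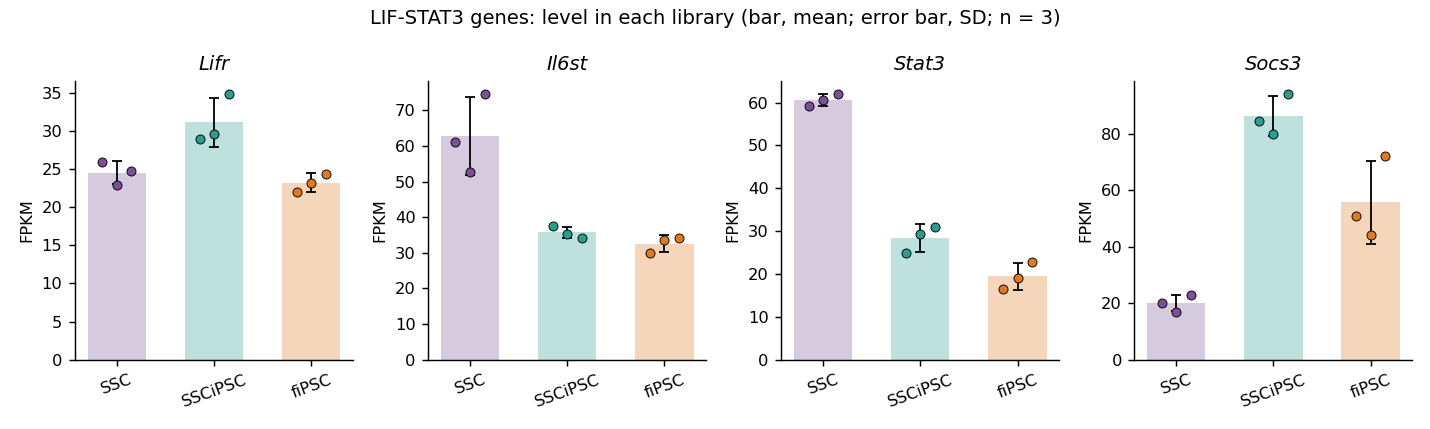
FPKM of Lifr, Il6st, Stat3 and Socs3 (y axis) in SSC, SSCiPSC and fiPSC (x axis), with each library as a point, the mean as a bar and the SD as an error bar (n = 3). The 3 SSC libraries lie above all iPSC libraries for Il6st and Stat3, and below all of them for Socs3.

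On the BMP side, Id2 fell the most, and Id1 and Id3 did not pass in SSCiPSC. Bmp4, the ligand, lies at chr14:46383520-46390669 on the minus strand. Its FPKM was 4.37, 3.17 and 1.87 in SSC, 4.01, 7.02 and 2.62 in SSCiPSC and 6.36, 6.24 and 6.91 in fiPSC. SSC and SSCiPSC overlapped, whereas the 3 fiPSC libraries lay above the 3 SSC libraries. Bmp4 rose by 0.90 in fiPSC (SE 0.27, limma adjusted p = 0.0335), and its log2 fold change in SSCiPSC was 0.39 (SE 0.40, limma adjusted p = 0.452). The value in SSCiPSC was 0.087 without SSCiPSC replicate 2, 0.15 without SSC replicate 3, 0.60 without SSC replicate 1 and 0.66 without SSCiPSC replicate 3, and it passed under none of the 14 alternatives. The SSC values rest on about 15, 28 and 5 fragments, and 5 of 14 alternatives ended the call in fiPSC, with an adjusted p up to 0.112 when fiPSC replicate 3 was left out.

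Bmpr1a encodes the type I receptor of BMP4 and lies at chr14:34410734-34503341 on the minus strand. Its FPKM was 51.2, 61.1 and 52.8 in SSC, 46.7, 25.3 and 34.2 in SSCiPSC and 33.8, 38.3 and 27.7 in fiPSC. Both iPSC groups lay below SSC, with SSCiPSC replicate 1 nearest to it. Bmpr1a fell by 0.72 in fiPSC (SE 0.15, limma adjusted p = 0.00796), and by 1.22 under quantile normalization. In SSCiPSC the log2 fold change was -0.66 (SE 0.23, limma adjusted p = 0.0526), and 4 of 15 alternatives brought it past the threshold. It was -1.24 under quantile normalization (limma adjusted p = 0.00447) and -0.88 without SSCiPSC replicate 1 (limma adjusted p = 0.0168), whereas without SSCiPSC replicate 2 it was -0.45 (limma adjusted p = 0.114). With all 9 libraries, and with 1 locus per named gene, the limma adjusted p was 0.0289 and 0.0211. Of 3 further loci with no strand at Bmpr1a, 2 fell in both comparisons, from means of 5.19 and 2.58 FPKM in SSC to 1.18 and 0.319 in SSCiPSC, and 1 near the 3′ end of the gene passed in neither, with means of 15.2, 14.4 and 13.3 FPKM in SSC, SSCiPSC and fiPSC.

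SSCiPSC replicate 1 and fiPSC replicate 2, the highest of their groups for Bmpr1a, also had the highest levels of other genes on chromosome 14. The median of 230 chromosome 14 genes, relative to genes of other chromosomes and to the mean of the 6 iPSC libraries, was 0.26, -0.17 and -0.10 on the log2 scale in SSCiPSC replicates 1, 2 and 3, and -0.04, 0.21 and -0.14 in fiPSC. The same measure over 337 genes of chromosome 8, which carries Smad1, was -0.15, -0.22 and 0.05 in SSCiPSC and 0.09, 0.21 and 0.02 in fiPSC. Across the chromosomes of the other members (2, 4, 11, 12, 13 and 15) it lay between -0.04 and 0.08. The part of these chromosome-wide shifts in the values of Bmpr1a, Bmp4 and Smad1 was not tested.

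Smad1, the transcription factor activated by the BMP receptor, lies at chr8:79338395-79399518 on the minus strand. Its FPKM was 15.2, 14.0 and 12.8 in SSC, 8.72, 7.64 and 11.8 in SSCiPSC and 10.8, 10.9 and 9.52 in fiPSC. All 6 iPSC libraries were below all 3 SSC libraries, though the gap between SSCiPSC replicate 3 and SSC replicate 3 was small. In SSC these values rest on about 97, 233 and 64 fragments. The log2 fold change was -0.55 (SE 0.20, limma adjusted p = 0.0644) in SSCiPSC and -0.39 (SE 0.14, limma adjusted p = 0.0517) in fiPSC, just above the threshold. Of 15 alternatives, 3 brought Smad1 past it in SSCiPSC and 6 in fiPSC, among them the one that left out SSC replicate 3 in fiPSC (adjusted p = 0.0404 by limma). Under median-ratio scaling the log2 fold change was smaller, at -0.36 in SSCiPSC (limma adjusted p = 0.188) and -0.23 in fiPSC (limma adjusted p = 0.210).

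Id1 lies at chr2:152736251-152737410 on the plus strand, in a locus that begins at position 152727009, well upstream of the annotated gene. Its FPKM was 18.9, 9.34 and 21.5 in SSC, 10.4, 10.8 and 7.22 in SSCiPSC and 6.15, 7.35 and 7.70 in fiPSC. The lowest SSC library, replicate 2, fell inside the range of SSCiPSC and above that of fiPSC. Id1 fell by 1.05 in fiPSC (SE 0.31, limma adjusted p = 0.0312), and its log2 fold change in SSCiPSC was -0.69 (SE 0.34, limma adjusted p = 0.134). Without SSC replicate 2 the value in SSCiPSC was -1.03 with a limma adjusted p of 0.0155. Leaving out any of the 3 fiPSC libraries, or SSC replicate 1 or 3, ended the call in fiPSC, with limma adjusted p-values between 0.0689 and 0.106. The SSC values rest on about 33, 43 and 30 fragments.

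Id2 lies at chr12:25093799-25097140 on the minus strand. Its FPKM was 16.3, 11.6 and 23.1 in SSC, 1.32, 1.46 and 1.63 in SSCiPSC and 1.06, 0.650 and 1.11 in fiPSC. No iPSC library came near the SSC range, and SSC replicate 2 was the lowest of its group, as it was for Id1 and Id3. The SSC mean was 11.6 times the SSCiPSC mean and 18.1 times the fiPSC mean. Id2 fell by 2.82 in SSCiPSC (SE 0.29, limma adjusted p = 0.000472) and by 3.17 in fiPSC (SE 0.29, limma adjusted p = 0.000326), and both calls passed under all 15 alternatives. A second locus with the same ends on the plus strand had 6.63, 10.9 and 10.6 FPKM in SSC, 1.32, 1.48 and 2.36 in SSCiPSC and 0.738, 1.75 and 1.42 in fiPSC. It was lower as well, by 1.92 (limma adjusted p = 0.00211) and 2.17 (limma adjusted p = 0.0014) on the log2 scale.

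Id3 lies at chr4:136143497-136145755 on the plus strand. Its FPKM was 23.1, 12.9 and 20.3 in SSC, 5.95, 26.5 and 12.1 in SSCiPSC and 15.0, 8.54 and 18.7 in fiPSC. All 3 groups overlapped, and the SSCiPSC libraries differed from each other by more than the group means did. The log2 fold change was -0.50 (SE 0.51, limma adjusted p = 0.45) in SSCiPSC and -0.41 (SE 0.33, limma adjusted p = 0.343) in fiPSC. With 1 library left out it lay between -1.01 (without SSCiPSC replicate 2) and -0.02 (without SSCiPSC replicate 1) in SSCiPSC, and between -0.65 (without SSC replicate 2) and -0.12 (without fiPSC replicate 2) in fiPSC. Within a library, the ratio of Id2 to Id1 was between 0.862 and 1.24 in SSC and between 0.0884 and 0.225 in iPSC, with no overlap, whereas the ratio of Id1 to Id3 lay between 0.725 and 1.06 in SSC and spread over 0.409 to 1.74 in iPSC. Id2 was therefore lower relative to Id1 in each iPSC library than in any SSC library, while Id1 and Id3 showed no such separation. The differences between the Id genes were not tested.

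**Figure D2:**
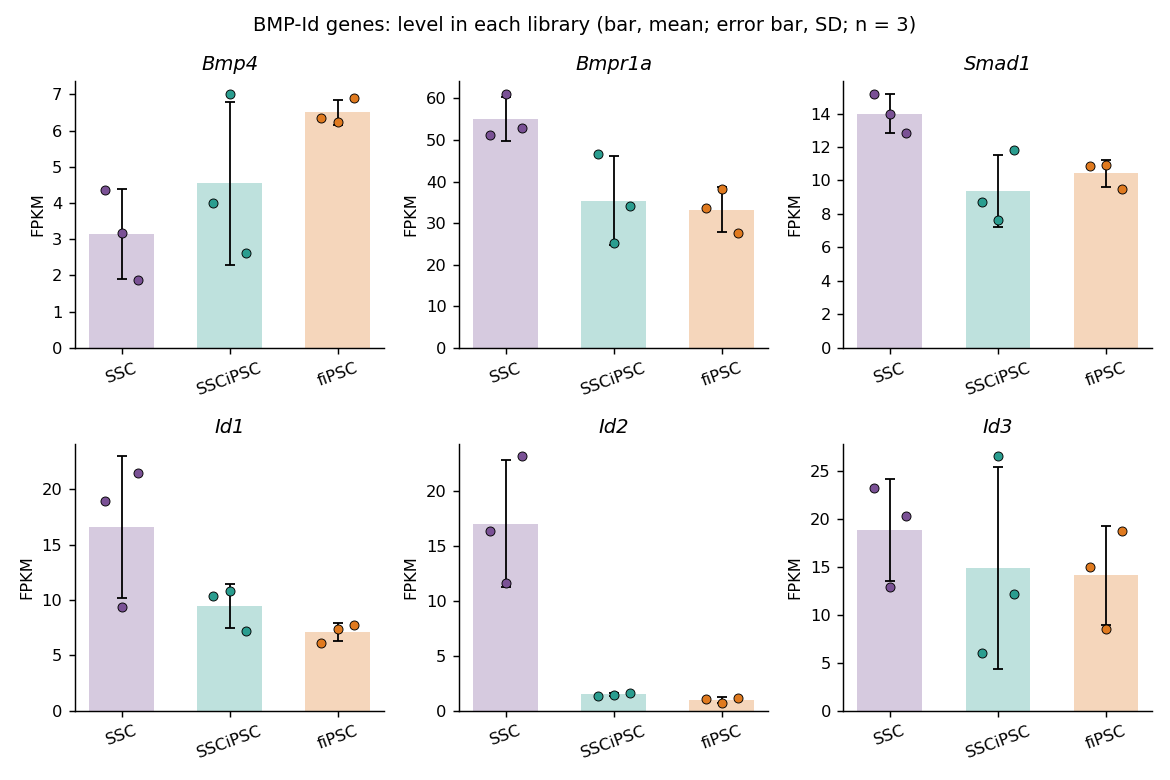
FPKM of Bmp4, Bmpr1a, Smad1, Id1, Id2 and Id3 (y axis) in SSC, SSCiPSC and fiPSC (x axis), with each library as a point, the mean as a bar and the SD as an error bar (n = 3). Id2 lies between 11.6 and 23.1 in SSC and at 1.63 or less in iPSC, while Id3 overlaps in all groups.

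**Figure D3:**
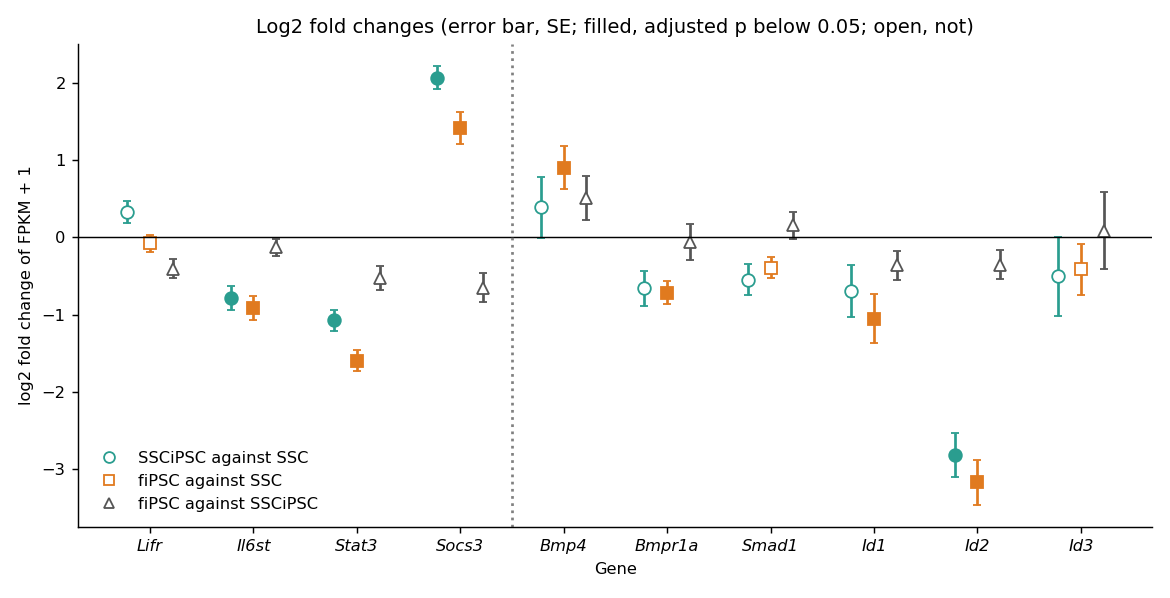
Log2 fold change of FPKM + 1 (y axis) of the 10 genes (x axis) in 3 comparisons, with the SE as an error bar, filled symbols for a limma adjusted p below 0.05 and open symbols otherwise. Socs3 has the highest and Id2 the lowest values against SSC, and all 10 values of fiPSC against SSCiPSC are open.

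**Figure D4:**
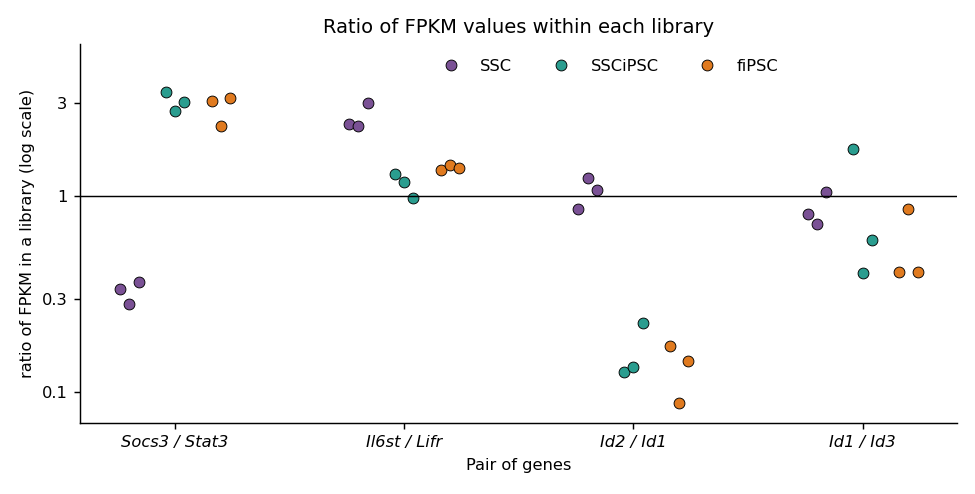
Ratio of FPKM values of pairs of genes (x axis) within each of the 9 libraries (y axis, log scale), with each library as a point coloured by group. Socs3 to Stat3 is below 1 in SSC and above 2 in iPSC, Id2 to Id1 is near 1 in SSC and below 0.3 in iPSC, and Id1 to Id3 overlaps.

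The order of the 10 genes by FPKM, a measure per length, also differed between the groups. In SSC the order from high to low was Il6st, Stat3, Bmpr1a, Lifr, Socs3, Id3, Id2, Id1, Smad1 and Bmp4. Il6st overlapped Stat3 and Stat3 overlapped Bmpr1a, and the genes from Socs3 to Smad1 each overlapped the next, so only the steps from Bmpr1a to Lifr, from Lifr to Socs3 and from Smad1 to Bmp4 exceeded the spread of the libraries. In SSCiPSC and fiPSC, Socs3 came first and did not overlap the next gene, and Id2 came last, below Bmp4 and without overlap. Stat3 moved from the second place in SSC to the fifth in both iPSC groups, although there it overlapped its neighbours.

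The second question was whether the origin of the iPSC mattered for these genes. None of the 10 passed in fiPSC against SSCiPSC (0 of 10 by limma), where 0.0678% of loci passed, and 3 of the 10 had an unadjusted p below 0.05, where 11.7% of loci did. These were Lifr, Stat3 and Socs3, all lower in fiPSC. The log2 fold changes were -0.41 for Lifr (SE 0.12), -0.52 for Stat3 (SE 0.15) and -0.65 for Socs3 (SE 0.19), with limma adjusted p-values of 0.298, 0.298 and 0.290. The 2 iPSC groups were separated for 5 of the 10 genes (Lifr, Il6st, Stat3, Socs3 and Id2), where 18.6% of loci did not overlap, and fiPSC was lower for each. Il6st was separated only by 34.3 FPKM in the lowest SSCiPSC library against 34.2 FPKM in the highest fiPSC library, with a log2 fold change of -0.13 (SE 0.11, limma adjusted p = 0.687). Over the alternatives this fold change lay between -0.16 and -0.04, and it was -0.07 without fiPSC replicate 1. An exact two-sided permutation test of 3 against 3 libraries cannot go below p = 0.1, the value it gave for each of these 5. On the BMP side the log2 fold changes were within 1 SE of 0 for Bmpr1a (-0.06, SE 0.23), Smad1 (0.15, SE 0.18) and Id3 (0.09, SE 0.50). They were larger than 1 SE for Bmp4 (0.51, SE 0.29), Id1 (-0.36, SE 0.19) and Id2 (-0.35, SE 0.18), with limma adjusted p-values of 0.538, 0.504 and 0.508. With 1 library left out, Smad1 lay between 0.03 (SE 0.17, without SSCiPSC replicate 2) and 0.31 (SE 0.16, without SSCiPSC replicate 3). Bmp4 lay between 0.24 without SSCiPSC replicate 3 and 0.82 without SSCiPSC replicate 2, and none of these values passed.

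The wider pathways were described with fixed lists of 102 further genes, of which 83 had a locus of their own. On the LIF side, 12 of 39 tested genes rose and 16 fell in SSCiPSC, and 12 rose and 17 fell in fiPSC, with medians of -0.09 and -0.26 on the log2 scale, the first of which turned to 0.11 under median-ratio scaling. On the BMP side, 2 of 29 rose and 19 fell in SSCiPSC, and 3 rose and 21 fell in fiPSC, with medians of -1.23 and -1.20. Among genes with a mean of at least 5 FPKM, 2 rose and 11 fell of 21 in SSCiPSC. Of the 16833 loci at that level, 6436 rose and 3271 fell. The part of Sertoli and other somatic cells of the SSC libraries in these counts was not tested. For the counts over all tested genes and the lists below, the background is the shares given above. These are over all loci and, by direction, higher among named genes. The medians of all loci were 0.11 and 0.17. Between fiPSC and SSCiPSC, 0 of the genes on either list passed by limma, and 5 of 32 and 3 of 22 had an unadjusted p below 0.05.

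Among LIF and IL-6 family ligands, 4 of 6 tested fell in both iPSC groups and none rose. For comparison, 24.1% of all loci were lower in SSCiPSC and 23.7% in fiPSC. Among loci of named genes, 62.3% and 64.8% passed in either direction. With 1 locus per named gene, 3035 of 10069 were lower in SSCiPSC and 3202 of 10173 in fiPSC. Lif itself was low in SSC, at 2.40, 5.36 and 4.09 FPKM, and at 0.743 FPKM or less in each iPSC library. Clcf1, a ligand that acts through LIFR and gp130 with the CNTF receptor, went from a mean of 16.4 FPKM in SSC (SD 2.04) to 0.153 in SSCiPSC and 0.291 in fiPSC. Il6 was at 5.31, 10.8 and 20.4 FPKM in SSC and listed at 0 in the 3 SSCiPSC libraries. Cntf, the ciliary neurotrophic factor, had means of 16.9, 15.9 and 14.0 FPKM in SSC, SSCiPSC and fiPSC and did not pass. Il6 was highest in SSC replicate 3, where the mast and macrophage markers were highest, and the part of those cells in it was not tested.

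Of the receptors, Osmr, which pairs with gp130 for oncostatin M, fell from a mean of 14.3 FPKM in SSC to 0.519 in SSCiPSC (limma adjusted p = 0.00028) and 0.399 in fiPSC (limma adjusted p = 0.000209). Among Janus kinases and STAT factors, 5 of 10 fell and 1 rose in SSCiPSC, and 6 fell and 1 rose in fiPSC. These counts are near the background, since 62.3% and 64.8% of loci of named genes passed in either direction. Stat5a was the gene that fell only in fiPSC, and its call was lost without fiPSC replicate 1 (limma adjusted p = 0.0598). Jak1, the main kinase of gp130, fell from 49.5, 52.4 and 42.7 FPKM in SSC to 15.6, 10.9 and 14.0 in SSCiPSC and 10.6, 13.9 and 9.76 in fiPSC. Jak2 fell from a mean of 35.4 FPKM to 3.09 and 2.43. Stat4 was the member that rose, from a mean of 0.577 FPKM in SSC to 5.81 in SSCiPSC (limma adjusted p = 0.000876).

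Inhibitors of cytokine signalling moved both ways, with 6 of 13 up and 4 down in both iPSC groups, Socs3 included. Over all loci, 26.2% were higher and 24.1% lower in SSCiPSC, and 28.0% higher and 23.7% lower in fiPSC. The shares of loci of named genes that passed were 62.3% and 64.8%. Socs2, a relative of Socs3 known for limiting growth hormone signalling, rose from 8.06, 7.14 and 5.34 FPKM in SSC to 38.3, 53.0 and 36.1 in SSCiPSC and 35.5, 31.3 and 45.8 in fiPSC. The phosphatase Ptpn6 rose from 1.66, 1.05 and 6.53 FPKM in SSC, where replicate 3 was the highest, to means of 18.3 and 21.5 FPKM in SSCiPSC and fiPSC. Socs5 fell from a mean of 16.0 FPKM in SSC (SD 0.890) to 1.33 in both iPSC groups. Under quantile normalization 4 of the 13 rose, and Pias2, called higher in fiPSC, had a log2 fold change of -0.08. The call of Pias2 in fiPSC was also lost without any one of the 3 fiPSC libraries (limma adjusted p between 0.0587 and 0.0777). It was lost as well with no trend (limma adjusted p = 0.0528) and with the replicate block (limma adjusted p = 0.0514). The lower call of Socs7 in SSCiPSC (-0.64, limma adjusted p = 0.0396) was lost under median-ratio scaling, quantile normalization and the replicate block, and without any one library other than SSC replicate 1, with limma adjusted p-values between 0.0585 and 0.144, and that in fiPSC without fiPSC replicate 1 (limma adjusted p = 0.0539).

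Of 10 STAT3 targets known from embryonic stem cells, 7 rose and 2 fell in both iPSC groups, Socs3 again included. Of all loci, 26.2% were higher in SSCiPSC and 28.0% in fiPSC, and 50.3% and 51.8% passed in either direction, or 62.3% and 64.8% among loci of named genes. With 1 locus per named gene, 3900 of 10069 were higher in SSCiPSC and 4001 of 10173 in fiPSC. Tfcp2l1, a transcription factor of the naive state, rose from 2.2, 2.74 and 2.47 FPKM in SSC to 65.9, 104 and 69.0 in SSCiPSC and 30.7, 28.7 and 41.3 in fiPSC. Klf5 rose from a mean of 18.0 FPKM to 74.0 and 48.1, and Pim3, a survival kinase, from 16.0 to 67.2 and 45.4. The targets that fell were Pim1, from a mean of 116.4 FPKM to 53.2 and 43.5, and Myc, from a mean of 58.0 FPKM in SSC to 2.81, 19.0 and 4.11 FPKM in SSCiPSC, where replicate 2 stood apart, and to a mean of 6.91 FPKM in fiPSC. Klf4 and Myc are also encoded by the transgene, which these values cannot tell from the endogenous gene. Klf4 and Mcl1 no longer passed under quantile normalization, which left 5 of 10 up. Tfcp2l1, Klf5 and Pim3 were lower in fiPSC than in SSCiPSC without overlap, by 1.21, 0.58 and 0.56 on the log2 scale, but their limma adjusted p-values were 0.177, 0.32 and 0.22. Socs3 and Klf4 did not overlap either, Klf4 only by 79.9 FPKM in SSCiPSC replicate 2 against 79.6 in fiPSC replicate 2. Over all loci, 18.6% did not overlap between these groups.

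Of the BMP ligands tested, Bmp6 and Bmp7 fell in both iPSC groups. Bmp1, a secreted metalloprotease that stands on the same list for its name but is not a ligand, fell as well, from a mean of 16.3 FPKM in SSC to 0.660 in SSCiPSC and 0.620 in fiPSC. Bmp7 fell from 12.1, 8.20 and 8.92 FPKM in SSC to 3.55, 3.07 and 2.12 in SSCiPSC and 4.62, 5.27 and 3.44 in fiPSC. Of 6 BMP receptors tested, 4 fell and 1 rose in SSCiPSC, and 5 fell and 1 rose in fiPSC, where Bmpr1a is among those that fell. The shares of all loci that were lower were 24.1% and 23.7%, and 62.3% and 64.8% of loci of named genes passed in either direction. With 1 locus per named gene, 3035 of 10069 were lower in SSCiPSC and 3202 of 10173 in fiPSC. Bmpr2, the type II receptor that pairs with BMPR1A, fell from 21.6, 21.3 and 27.8 FPKM in SSC to 2.87, 2.72 and 3.72 in SSCiPSC and 3.85, 3.28 and 3.48 in fiPSC. Acvr1 and Acvr2a fell as well, from means of 6.02 and 16.2 FPKM in SSC to 0.918 and 4.86 in SSCiPSC. Acvr2b, another type II receptor, rose from a mean of 8.30 FPKM to 15.7 and 16.5, a call that several single libraries decided. Leaving out SSCiPSC replicate 2 or 3, or SSC replicate 1 or 3, gave limma adjusted p-values between 0.0799 and 0.116 in SSCiPSC, and leaving out fiPSC replicate 1 or 3 gave 0.0523 and 0.0533 in fiPSC. Smad5, which acts alongside SMAD1, fell from a mean of 12.5 FPKM in SSC (SD 0.822) to 7.02 in SSCiPSC (limma adjusted p = 0.0109) and 6.03 in fiPSC (limma adjusted p = 0.00287). Smad4 was also counted as lower in fiPSC, at -0.42 on the log2 scale. Under median-ratio scaling Smad4 was -0.25 (limma adjusted p = 0.118). Its call was also lost with no trend or the replicate block, and without fiPSC replicate 2 or 3 (limma adjusted p between 0.0534 and 0.0717).

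Inhibitors of BMP signalling fell in 8 of 13 cases in SSCiPSC and 9 of 13 in fiPSC, with 1 rise in each, of Smad7 in SSCiPSC and of Skil, a repressor of SMAD factors, in fiPSC. Beside this, 24.1% and 23.7% of all loci were lower, and 62.3% and 64.8% of loci of named genes passed in either direction. With 1 locus per named gene, 3035 of 10069 were lower in SSCiPSC and 3202 of 10173 in fiPSC. The call of Skil was lost without any one of 5 of the 6 libraries, SSC replicate 3 being the exception, with limma adjusted p-values between 0.0708 and 0.148. It was also lost with no filter, all 9 libraries, no trend or the replicate block, and under quantile normalization, where the log2 fold change was 0.18 instead of 0.48 (limma adjusted p = 0.440). Twsg1, a secreted BMP-binding protein counted as lower in fiPSC, lost its call under median-ratio scaling (limma adjusted p = 0.0678), with the replicate block (limma adjusted p = 0.0711), and without fiPSC replicate 1 (limma adjusted p = 0.0596) or 3 (limma adjusted p = 0.0639). Nbl1, a secreted BMP antagonist, fell from a mean of 17.5 FPKM in SSC to 0.393 in SSCiPSC (limma adjusted p = 0.000262). Smad6, the inhibitory SMAD of the BMP branch, fell from a mean of 11.1 FPKM to 4.66 and 4.58. Smad7, which inhibits both BMP and TGF-beta signalling, rose from a mean of 20.6 FPKM in SSC to 35.5 in SSCiPSC (limma adjusted p = 0.0153) but not under quantile normalization (limma adjusted p = 0.0909), and had a mean of 25.0 in fiPSC, where it did not pass.

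Of 9 BMP targets tested, 4 fell and 1 rose in SSCiPSC, and 5 fell and 1 rose in fiPSC, the Id genes included. This is near the background, as 50.3% and 51.8% of all loci passed, and 62.3% and 64.8% of loci of named genes. Id4, the Id gene known as a marker of SSC, fell from 12.4, 10.9 and 9.16 FPKM in SSC to 2.50, 1.25 and 2.2 in SSCiPSC and 1.31, 1.70 and 1.26 in fiPSC. Hey1 fell from a mean of 7.23 FPKM to 0.901 and 1.54. Dusp9, a phosphatase that limits ERK and is induced by BMP4 in embryonic stem cells, rose from a mean of 32.7 FPKM in SSC to 67.3 in fiPSC (limma adjusted p = 0.00345), and had a mean of 48.8 in SSCiPSC, where it did not pass. Of the E proteins that Id proteins bind, Tcf12 fell from 33.6, 36.4 and 37.1 FPKM in SSC to 8.43, 7.87 and 8.74 in SSCiPSC and 9.40, 9.05 and 9.84 in fiPSC. Tcf3 had means of 41.3, 41.4 and 41.2 FPKM in SSC, SSCiPSC and fiPSC.

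**Figure D5:**
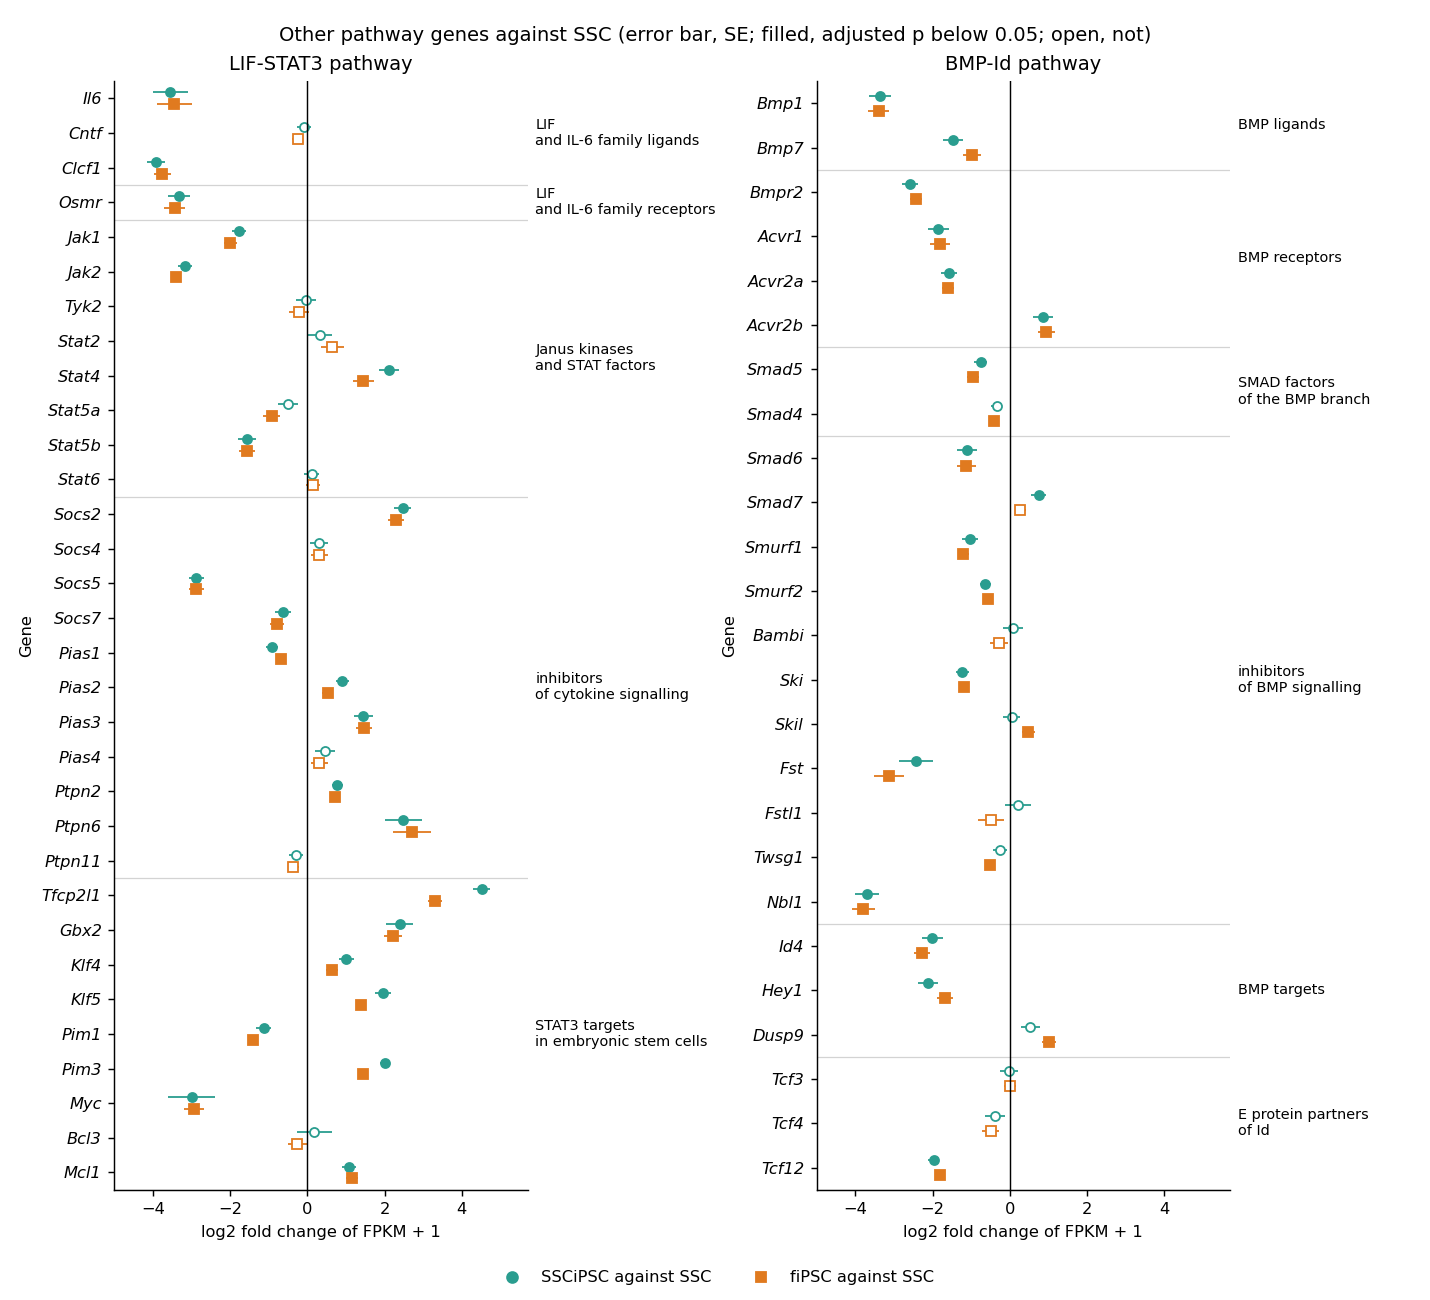
Log2 fold change of FPKM + 1 (x axis) against SSC of pathway genes outside the 10 with a mean of at least 5 FPKM in a group (y axis), grouped by list (Bmp1 stands with the BMP ligands by name only), with the SE as an error bar, filled symbols for a limma adjusted p below 0.05 and open symbols otherwise. On the LIF side values lie on both sides of 0, whereas on the BMP side Acvr2b, Smad7, Skil and Dusp9 are the genes called higher.

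For each of the 10 genes, the named gene with the most similar profile was found by Pearson's r of log2(FPKM + 1) over the 9 libraries, among 5822 genes with a mean of at least 10 FPKM. It was Rock2 for Id2 (r = 0.995), Ppp1r15b for Stat3 (r = 0.992), Mut for Socs3 (r = 0.988), Cd44 for Il6st (r = 0.982), Smc1b for Bmpr1a (r = 0.981) and Bbc3 for Bmp4 (r = 0.975). For Id1 it was Hbegf (r = 0.957), for Smad1 Glg1 (r = 0.939), for Id3 Spry4 (r = 0.939) and for Lifr Galnt11 (r = 0.877). These are descriptions over 9 libraries that fall into SSC and iPSC, so any gene that differs between those can reach a high r. Within the 10, Id2 and Il6st were the most alike (r = 0.975) and Id2 and Socs3 the most opposed (r = -0.851). Spry4, a feedback inhibitor of receptor kinases, had the same order as Id3 in SSCiPSC, with 5.21, 21.1 and 9.84 FPKM in replicates 1, 2 and 3.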

How the data were processed

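RNA-seq of 9 libraries was used. The authors trimmed reads and aligned them with TopHat2 2.0.9, assembled and quantified loci with Cufflinks 2.2.1, per the labels and the submitters' processing notes, and deposited 1 FPKM value per locus and library, a normalized unit with no counts. The notes name mm9, but the coordinates match GRCm38, which is used throughout. Of 54914 loci, 1 with a blank value was left out. Loci are listed in blocks by strand, which gave each its strand (98.1% of loci matching a gene at both ends within 300 bp had that gene's strand). A locus was given the name of a gene of GENCODE M21 of which it covers at least 50%. If it covers several protein-coding genes it was not named. Depth was estimated from the steps between low FPKM values. Fragment numbers per gene use its longest transcript, are approximate and cover counting error only.

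Groups were compared in pairs on log2(FPKM + 1) by limma 3.58.1 (R 4.3.3, lmFit and eBayes with a trend). Loci entered if 3 or more of the 6 libraries reached 1 FPKM, with Benjamini-Hochberg adjustment over all loci and a threshold of 0.05. The script was tested on simulated data. Tables and plots used Python 3.11.15, pandas 2.3.3, numpy 2.4.6 and matplotlib 3.10.9. The 10 genes, the pathway and marker lists and the alternatives were chosen with earlier results of these data known. Named pathway genes have a mean of at least 5 FPKM in a group or pair with a member, except Bmp6, with means of 2.68, 0.305 and 0.448 FPKM in SSC, SSCiPSC and fiPSC. Alternatives were a pseudocount of 0.1, no filter, a mean of at least 5 FPKM, median-ratio scaling, quantile normalization, all 9 libraries in the fit, no trend, the replicate number as a block, 1 locus per named gene, and each library left out in turn. The labels name ribosomal RNA depletion and a stranded mRNA kit. Some pathway genes that enter the list counts are not reported here by name or plotted.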

Additional observations from a re-analysis of the deposited data

How the results depend on the processing

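The number of loci that passed moved by more than 1.5 times as follows. A mean of at least 5 FPKM gave 9707 of 16833 loci for SSCiPSC against SSC and 10158 of 16833 for fiPSC against SSC. With 1 locus per named gene, 6935 of 10069 and 7203 of 10173 passed. The settings used in the report gave 18396 and 19680. Both alternatives test fewer loci. For fiPSC against SSCiPSC, where 23 loci passed, the numbers were 10 with no filter, 11 with a mean of at least 5 FPKM, 11 with all 9 libraries, 6 with the replicate block and 46 with 1 locus per named gene, and from 6 to 20 when 1 library was left out. The cause was not tested. Of the 10 genes, 7 passed in SSCiPSC against SSC with all 9 libraries in the fit, 6 with 1 locus per named gene and 5 under median-ratio scaling or quantile normalization, where 4 passed with the settings used in the report, and from 4 to 5 passed with 1 library left out. In fiPSC against SSC from 5 to 7 passed with 1 library left out, and in fiPSC against SSCiPSC 0 passed under every alternative. Log2 fold changes of the 10 genes kept their direction and side of the threshold in 414 cases, came past it in 16, lost it in 10 and changed sign in 7, none of which passed the threshold. Those were Lifr in SSCiPSC against SSC under quantile normalization (-0.00264), Lifr in fiPSC against SSC under median-ratio scaling (0.0876), and, in fiPSC against SSCiPSC, Bmpr1a under quantile normalization (0.0241), without SSCiPSC replicate 1 (0.159) and without fiPSC replicate 3 (0.0645), with a range of -0.271 to 0.159 over the libraries left out, and Id3 without SSCiPSC replicate 1 (-0.394) and without fiPSC replicate 3 (-0.136), with a range of -0.394 to 0.597. Of the BMP genes outside the 10, 13 passed in SSCiPSC against SSC with a mean of at least 5 FPKM, where 21 passed with the settings used in the report. Pias2 in fiPSC against SSC was -0.0758 under quantile normalization. Whether the shared replicate numbers pair the libraries is not stated in the sources. Correlations of same-numbered deviations lay between -0.244 and 0.0267. They gave no sign of pairing but cannot exclude it, since counting error also enters the deviations. With the replicate block, 4, 6 and 0 of the 10 genes passed in the 3 comparisons, and Bmp4 in fiPSC against SSC was the gene that no longer did (limma adjusted p = 0.073). SSC libraries of 1370000 to 4610000 fragments limit the precision for Bmp4, Id1, Id2 and Id3, which rest on 5 to 97 fragments there. Smad1 and Socs3 also rest on few, with 64 to 233 and 75 to 188 fragments in SSC.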
